A study of Homo sapiens with 12 samples.

Results

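The genes described are 42 members of the interferon response and of antigen presentation, chosen by name from the deposited table of HEYA8 ovarian cancer cells, which held 21207 genes. Of the 42, 39 had a value and 38 passed the filter on low values described below. The members fall into 6 sensors of foreign or misplaced nucleic acid, 20 antiviral effectors, 7 genes of the ISG15, ubiquitin and ADP-ribosylation systems, 5 transcription factors and 4 genes of MHC class I presentation. MX2, BST2 and XAF1, all on the effector list, are not analysed here. RIGI is the gene formerly called DDX58.

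Cells detect viral or misplaced RNA and DNA with dedicated sensors, which switch on the type I interferon genes through interferon regulatory factors. Secreted interferon binds receptors on the same or a neighbouring cell and activates a complex that holds STAT2 and IRF9, which binds the interferon-stimulated response element (ISRE) of its target genes. Those targets encode effectors that degrade or trap viral RNA, feedback inhibitors, more sensor, and the machinery that shows peptides on MHC class I to T cells. Tumour cells can keep a low level of this programme running without infection.

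HEYA8 is an established human ovarian cancer line. Cells were kept for 48 h in vehicle, labelled as 0 µM, or in colforsin daropate at 1, 5 or 10 µM, with 3 libraries in each of the 4 groups. The drug, made from forskolin to dissolve in water, activates adenylyl cyclase and so raises cyclic AMP. All libraries came from 1 line grown in DMEM with serum, no genetic change or other agent is named, and whether the line is a single clone is not given in the labels. According to the design text the 3 libraries of a group are biological replicates. Each title carries a number, 6, 8 or 11, that recurs in every group, and since its meaning is not stated it is called the label number here. P-values therefore measure the spread between these libraries. Because RNA came from whole cultures, fewer cells of a type and less RNA per cell cannot be told apart.

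Values are the authors' variance-stabilised values, which behave as log2 for abundant genes and flatten towards a minimum of 4.86 for genes without reads, so a difference on this scale understates the fold of a low gene. Whole reads recovered from the low values gave a depth on genes of 24.0 megareads for vehicle library 6 and of 31.2 to 48.7 megareads for the rest. Inverting the stabilising curve turned each value into normalised reads, that is reads divided by the library's scaling factor, which are given where a fold is printed. Of 9 ovarian carcinoma and epithelial markers listed, 7 had a value. PAX8 ran from 12.5 to 13.6 and the keratins KRT7, KRT8 and KRT18 from 11.5 to 14.9, while WT1 (6.89 to 7.73), MSLN (7.29 to 7.86) and EPCAM (5.45 to 5.72) were low, and MUC16 and CDH1 are not analysed here. The 4 mesenchymal markers were at 17 to 18.7 for VIM, 18.4 to 21 for FN1, 11 to 12.9 for CDH2 and 12.4 to 12.7 for ZEB1. Of the leukocyte markers with a value, PTPRC reached at most 5.91, CD14 5.37 and CD68 5.86, while NCAM1, at 10.8 to 11.9, and ITGAX, at 7.32 to 8.88, were clearly detected in all libraries.

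Members were called in both directions at 10 µM. Transcription factors IRF1 and IRF7 and the ADP-ribosyltransferase PARP14 rose, while sensors IFI16, IFIH1 and DDX60, effectors IFI44L, OAS3 and SAMD9, the ISG15 protease USP18, the ubiquitin ligase TRIM21 and the peptide transporter TAP1 fell. In limma, with Benjamini-Hochberg adjustment over all 17767 genes tested and a call at an adjusted p under 0.05, this was 3 of 38 members higher (7.89%, against 11.2% of all genes tested) and 9 of 38 lower (23.7%, against 11.4%). USP18 passed the filter on low values only through the vehicle group, where it is high, and without it the lower count was 8 of 37 (21.6%), or 14 with the replicate block. With the label number as a replicate block, which compares libraries of the same number, 6 of 38 were higher (15.8%, against 18.7% of all genes). In that fit 15 of 38 were lower (39.5%, against 19.7% of all genes). The median difference over the 38 members was -0.15, against 0.00 over all genes tested, and 26 of the 38 differences were negative.

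Fewer members were called at the lower doses. At 5 µM, IRF1 and PARP14 were higher (2 of 38, 5.26%, against 7.67% of all genes) and IFIH1, IFI16, OAS3 and TAP1 were lower (4 of 38, 10.5%, against 7.44%), with a median difference of -0.08. With the replicate block these counts were 4 higher (15.3% of all genes) and 11 lower (15.3%). At 1 µM only IRF1 was called, as higher (1 of 38, 2.63%, against 1.18% of all genes), and limma called 0 members lower, against 0.613% of all genes. An unadjusted p under 0.05 in either direction was found for 5 of 38 members, against 2749 of the 17767 genes. In voom on the recovered reads 0 members were lower too, against 1.25% of all genes. With the replicate block 2 members were higher at 1 µM (6.76% of all genes), IRF1 and IRF7, and 5 were lower (5.26% of all genes), IFIH1, IFI16, IFI44, IFI44L and TAP1.

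Between the highest and the lowest dose, 10 µM against 1 µM, limma called 1 member lower, OAS3, against 2.54% of all genes, and 0 higher, against 2.17%. At an unadjusted p under 0.05 there were 7 of 38 members in either direction, against 3751 of the 17767 genes. In voom 1 member was called higher, against 2.41% of all genes, and 0 lower, against 2.12%. The replicate block gave 5 lower (11.4% of all genes), OAS3, IFI16, IFI44, IFI44L and B2M, and 2 higher (9.46%), IRF1 and DHX58.

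The counts made without the replicate block moved when libraries were left out. All fits of this paragraph leave the block out, so they include the spread between label numbers. With 1 library left out, the members lower at 10 µM numbered 4 without 10 µM library 8 or 11, 5 without vehicle 11, 6 without vehicle 6 or vehicle 8, and 7 to 9 in the other fits. The members higher numbered 1 without vehicle 8, 2 without vehicle 6 or 10 µM library 8, and 3 otherwise. Without vehicle 6 the shares were 15.8% of members lower, against 12.4% of all genes, and 5.26% higher, against 11.9%. The share of all genes in the other fits of this paragraph is not given here, so their counts are not set against it. Dropping a whole label number, 4 libraries, gave 5 higher and 12 lower without number 6, 1 higher and 0 lower without number 8, and 1 higher and 1 lower without number 11. The median over the 38 tested members was -0.07 without vehicle 6, the shallowest library, against -0.15 with it.

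**Figure D1:**
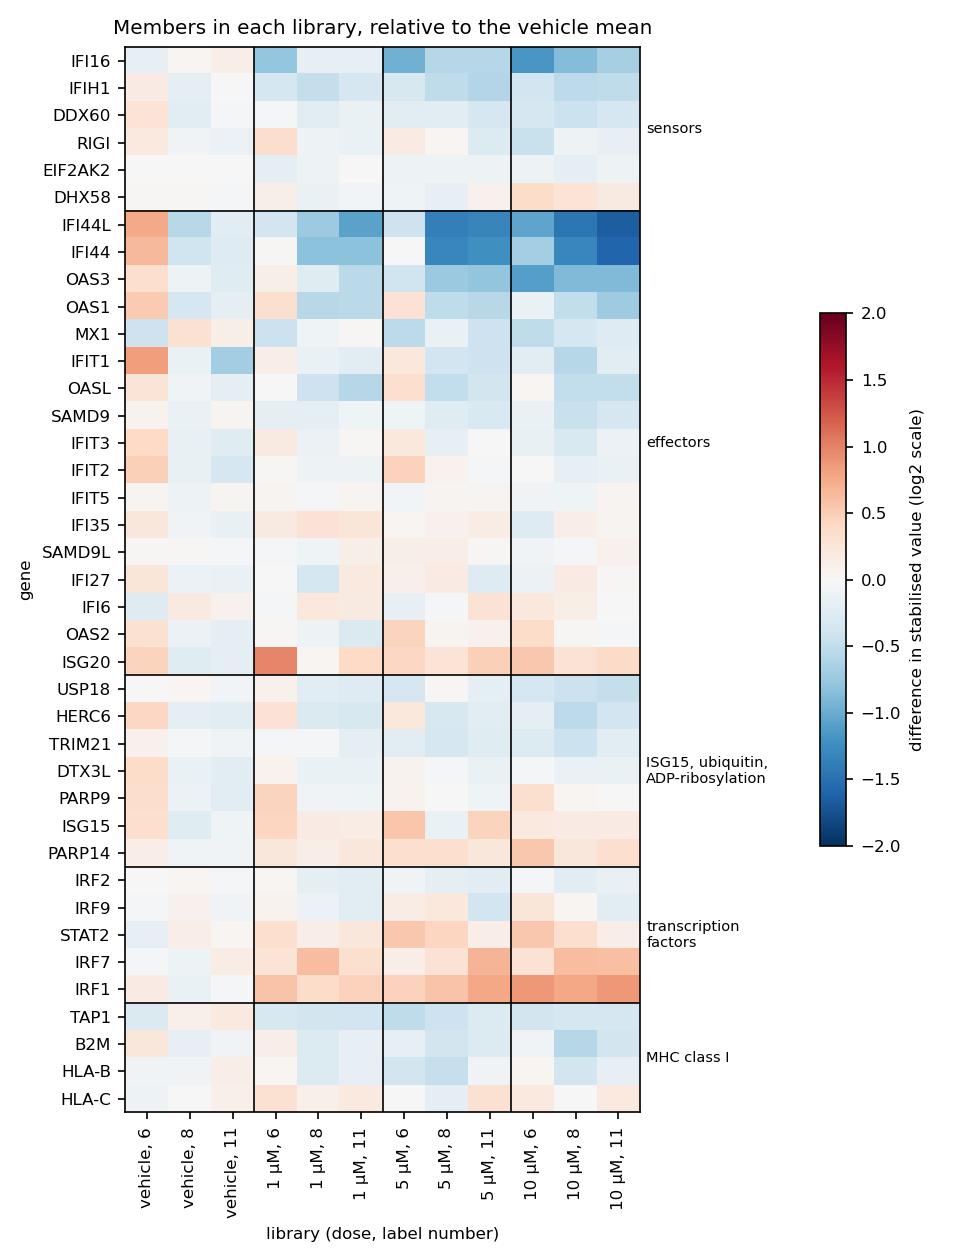
Difference of each member's stabilised value (log2 scale, colour) from the mean of the 3 vehicle libraries, with 1 row for each of the 39 genes with a value and 1 column for each of the 12 libraries, ordered by dose and label number. IFI16, IFI44L and OAS3 darken to blue with dose, IFIH1 is a like blue at all 3 doses, and IRF1 is red in all 9 treated libraries.

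Promoter sequence is shown for 6 called members, 4 that fell and 2 that rose, to set out where they hold the element that the complex with STAT2 and IRF9 binds. The 250 bases before each start come from RefSeq (GRCh38.p14), where 34 of the 42 members were matched. Promoters of DHX58, IFIT2, OAS2, OASL, MX2, USP18, IRF2 and IRF7 are not shown. Searched on both strands, the ISRE core, GAAA and GAAA parted by 2 bases of any kind, was found in 17 of the 34, against 3.02% of 35116 promoters of the same length, and the core of the gamma-activated site (GAS), TTCNNNGAA, in 8 of the 34, against 6.57%. The cyclic AMP response element TGACGTCA was found in 0 of the 34, against 1.65% of all promoters. Capitals mark ISRE and GAS matches, each sequence is written 5′ to 3′ on the gene's own strand, and matches that overlap run together.
IFIH1 (chr2:162318685-162318934, minus strand)
IFIH1: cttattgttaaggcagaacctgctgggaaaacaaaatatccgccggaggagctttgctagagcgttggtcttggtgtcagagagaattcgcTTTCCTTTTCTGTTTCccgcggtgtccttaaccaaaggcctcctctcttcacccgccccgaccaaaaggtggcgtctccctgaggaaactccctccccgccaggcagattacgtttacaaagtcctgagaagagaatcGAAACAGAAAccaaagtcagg
IFI44L (chr1:78620198-78620447, plus strand)
IFI44L: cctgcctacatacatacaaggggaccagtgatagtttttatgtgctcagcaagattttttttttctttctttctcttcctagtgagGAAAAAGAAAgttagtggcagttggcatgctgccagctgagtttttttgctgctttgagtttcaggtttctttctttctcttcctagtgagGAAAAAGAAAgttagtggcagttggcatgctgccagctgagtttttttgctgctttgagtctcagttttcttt
OAS3 (chr12:112938224-112938473, plus strand)
OAS3: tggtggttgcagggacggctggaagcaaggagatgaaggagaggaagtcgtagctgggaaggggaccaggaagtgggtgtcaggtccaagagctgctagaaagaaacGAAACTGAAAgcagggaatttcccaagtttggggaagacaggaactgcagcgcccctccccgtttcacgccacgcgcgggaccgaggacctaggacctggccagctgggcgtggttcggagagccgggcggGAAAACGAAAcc
TAP1 (chr6:32853705-32853954, minus strand)
TAP1: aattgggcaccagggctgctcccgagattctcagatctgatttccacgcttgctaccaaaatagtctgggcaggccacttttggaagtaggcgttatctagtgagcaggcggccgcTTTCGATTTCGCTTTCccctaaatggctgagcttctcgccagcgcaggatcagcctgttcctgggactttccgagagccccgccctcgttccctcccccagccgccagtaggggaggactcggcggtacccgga
PARP14 (chr3:122680589-122680838, plus strand)
PARP14: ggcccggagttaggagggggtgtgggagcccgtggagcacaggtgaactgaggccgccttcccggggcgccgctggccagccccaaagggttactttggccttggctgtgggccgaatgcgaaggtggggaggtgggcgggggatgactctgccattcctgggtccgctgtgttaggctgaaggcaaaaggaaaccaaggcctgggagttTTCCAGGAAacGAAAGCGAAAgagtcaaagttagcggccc
IRF1 (chr5:132490774-132491023, minus strand)
IRF1: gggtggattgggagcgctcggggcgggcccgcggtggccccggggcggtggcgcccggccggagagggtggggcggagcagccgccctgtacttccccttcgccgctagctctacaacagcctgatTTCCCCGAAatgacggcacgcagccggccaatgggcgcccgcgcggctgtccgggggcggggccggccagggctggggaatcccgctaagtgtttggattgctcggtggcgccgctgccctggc
IFIH1 held 3 ISRE matches, of which a pair overlapped, TAP1 a pair that overlapped, and IFI44L and OAS3 2 separate matches each. PARP14 held 1 ISRE and 1 GAS match, and IRF1 1 GAS match and no ISRE match. DDX60, SAMD9, IFI44 and B2M also held the ISRE core, and IFI16, TRIM21 and STAT2 held neither core in this window. The IFI16 window, 159008741 to 159008990, lies inside the gene, which starts at 158999968 on the plus strand. Its result therefore does not cover the bases before that gene start. The windows of IFI44L and TAP1 also lie inside the gene spans given here. Those of PARP14 and OAS3 begin before the gene starts, 122680618 and 112938352, and run into the genes. Both PARP14 matches and the last OAS3 match lie past those starts. The windows of IFIH1 and IRF1 run into their genes by fewer bases, and the last IFIH1 match spans the gene start. The members were chosen by name as interferon genes, so the shares describe them and test nothing, and a match is a string of letters, not a bound site.

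Among the sensors, 3 of 6 were lower at 10 µM (11.4% of all genes), and the other 3 were not called. Without vehicle library 6 the lower calls numbered 2, against 12.4% of all genes. IFI16, a nuclear and cytoplasmic sensor of DNA, was the most abundant sensor per length, with 1106 normalised reads per kilobase of exon over all libraries, against 355 for EIF2AK2 and 7.85 for RIGI. The stabilised value of IFI16 (ENSG00000163565, chromosome 1, 158999968 to 159055155, plus strand, GRCh38) was 12.8, 13 and 13.1 in vehicle libraries 6, 8 and 11, 12.2, 12.8 and 12.8 at 1 µM, 12, 12.4 and 12.4 at 5 µM and 11.8, 12.1 and 12.3 at 10 µM. Within each label number the value was lower at every dose than in vehicle, and the 5 and 10 µM libraries did not overlap the vehicle libraries. Normalised reads were 4275 ± 740 at 10 µM and 7976 ± 835 in vehicle (SD, n = 3 each), a ratio of 0.54. IFI16 fell by 0.90 ± 0.18 (SE) on the log2 scale at 10 µM (limma adjusted p = 0.00442), a call made in all 12 fits that left out 1 library, and by 0.70 at 5 µM (adjusted p = 0.0234). The 5 µM call was lost without vehicle 8 (adjusted p = 0.0732), vehicle 11 (0.0838) or 5 µM library 6 (0.0894), and at 1 µM the difference of -0.37 was called with the replicate block (adjusted p = 0.00765) and not without it (0.361).

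IFIH1, which encodes MDA5, the sensor of long double-stranded RNA (ENSG00000115267, chromosome 2, 162267079 to 162318703, minus strand), had most of its difference at 1 µM already. Its values were 9.01, 8.67 and 8.85 in vehicle libraries 6, 8 and 11, 8.49, 8.37 and 8.50 at 1 µM, 8.52, 8.34 and 8.25 at 5 µM and 8.46, 8.32 and 8.34 at 10 µM. Every treated library lay below every vehicle library. Normalised reads averaged 405 ± 53.9 in vehicle cells, then 295 ± 17.2 at 1 µM, 276.2 ± 31.8 at 5 µM and 276.2 ± 17.5 at 10 µM (SD, n = 3 each). IFIH1 fell by 0.47 ± 0.11 at 5 µM (limma adjusted p = 0.0134) and by the same at 10 µM (0.0095), and the 10 µM call was made in all 12 fits with 1 library left out. The 5 µM call was lost without 5 µM library 11 (adjusted p = 0.0535). At 1 µM the difference of -0.39 had an adjusted p of 0.0997 without the replicate block and of 0.012 with it.

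DDX60, a helicase reported to assist RIG-I-like sensing (ENSG00000137628, chromosome 4, 168216293 to 168318807, minus strand), was 10.8, 10.3 and 10.5 in vehicle libraries 6, 8 and 11, 10.5, 10.3 and 10.4 at 1 µM, 10.3, 10.3 and 10.2 at 5 µM and 10.2, 10.1 and 10.2 at 10 µM. The 10 µM libraries lay 0.1 or more below the lowest vehicle library, which is 1 rounding step of values above 10. DDX60 fell by 0.37 ± 0.11 at 10 µM (limma adjusted p = 0.0344), and without vehicle 6 the difference was -0.23. The call was lost without vehicle 6 (adjusted p = 0.0809), vehicle 11 (0.0719) or 10 µM library 6 (0.0675), 8 (0.103) or 11 (0.0667). With the replicate block and all libraries the limma adjusted p at 10 µM was 0.00504.

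The other 3 sensors were not called by limma without the block. DHX58, which encodes LGP2, a RIG-I-like helicase without signalling domains, was 9.06, 8.97 and 8.88 at 10 µM in libraries 6, 8 and 11, against 8.72, 8.72 and 8.66 in vehicle. The groups did not overlap, and the difference of 0.27 was called with the replicate block (limma adjusted p = 0.0316) and not without it (0.0673). RIGI, the sensor of RNA with a 5′ triphosphate, was low, at 5.95 to 6.75, and its difference at 10 µM was -0.24 (limma adjusted p = 0.338, with the block 0.227). In label numbers 6, 8 and 11 the difference of RIGI was -0.64, -0.03 and -0.05, so its size rests on number 6. EIF2AK2, the kinase PKR that halts translation on binding double-stranded RNA, ran from 11.8 to 12 over all libraries and differed by -0.13 at 10 µM (limma adjusted p = 0.172, blocked 0.0956). All 3 of its 10 µM libraries, at 11.9, 11.8 and 11.9, lay below the vehicle libraries, at 12 each. The groups are thus 1 rounding step apart.

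**Figure D2:**
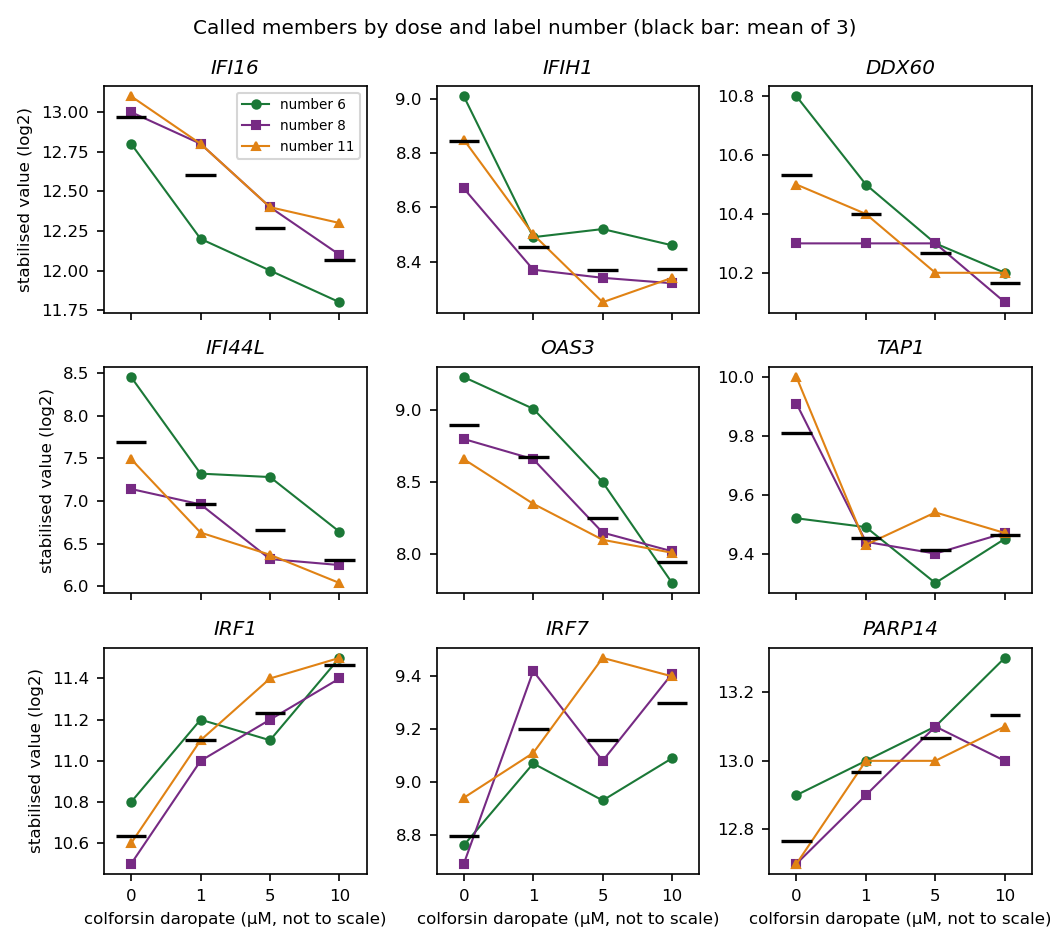
Stabilised value (log2 scale) of 9 called members in each library against the dose in µM, with vehicle at 0 and doses evenly spaced. Lines join libraries of 1 label number and black bars are group means (n = 3). IFI16, IFI44L and OAS3 fall stepwise in nearly every label number, IFIH1 and TAP1 are near their lowest values from 1 µM on, and IRF1 at 10 µM reaches 11.4 to 11.5.

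The effectors held the largest differences of all members and also the largest group of members that did not pass the test. At 10 µM limma called 3 of 16 lower (18.8%, against 11.4% of all genes), IFI44L, OAS3 and SAMD9, and the median difference of the 16 was -0.25, with 13 of 16 negative. That median was -0.01 without vehicle library 6. The replicate block gave 7 lower (43.8%, against 19.7% of all genes) and 1 higher (6.25%, against 18.7%). IFI27, an interferon-induced mitochondrial and nuclear protein, was the only member near the minimum of the table, with values of 5.13 to 5.73 in all 12 libraries and no group mean above 5.86, and it did not enter the tests. USP18, IRF9, OAS2, RIGI, OASL and IFI6 were the next lowest, with a highest group mean of 1.16, 1.33, 1.42, 1.57, 1.78 and 1.91 above the minimum of 4.86, where a difference understates the fold most.

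IFI44L, an interferon-induced protein with a reported feedback role in the interferon response (ENSG00000137959, chromosome 1, 78619922 to 78646145, plus strand), had the largest difference of all members. Its values were 8.45, 7.14 and 7.49 in vehicle libraries 6, 8 and 11, 7.32, 6.96 and 6.63 at 1 µM, 7.28, 6.32 and 6.37 at 5 µM and 6.64, 6.25 and 6.04 at 10 µM. All 3 label numbers were lower at every dose, the 10 µM libraries lay below all vehicle libraries, and vehicle library 6 stood about 1 unit above the other vehicle libraries. Normalised reads averaged 33.1 ± 15.2 at 10 µM and 169.6 ± 109 in vehicle (SD, n = 3 each), a ratio of 0.20. IFI44L fell by 1.38 ± 0.34 at 10 µM (limma adjusted p = 0.0135, with the replicate block 3.58e-05). Without the block, the call was lost without 10 µM library 11 (0.0514). The difference was -1.0 without vehicle 6 (adjusted p = 0.0327). Called with the replicate block and not without it were the differences of -1.04 at 5 µM (adjusted p = 0.000454 with, 0.0635 without) and -0.72 at 1 µM (0.0133 with, 0.339 without). Without the block and without vehicle 6 these were -0.66 (0.159) and -0.34 (0.555).

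IFI44, its neighbour on chromosome 1 (78649796 to 78664078, plus strand), is named here after its values were seen, since it missed the threshold narrowly. Its values were 8.82, 7.78 and 7.92 in vehicle libraries 6, 8 and 11, 8.19, 7.35 and 7.35 at 1 µM, 8.18, 6.87 and 6.94 at 5 µM and 7.50, 6.87 and 6.59 at 10 µM. Library 6 was the highest of its group at every dose, and within each number the treated libraries were below vehicle. The difference at 10 µM was -1.19 ± 0.40 with an adjusted p of 0.0513 in limma and of 1.37e-05 with the replicate block. Without the block, IFI44 was called when 1 µM library 6 (adjusted p = 0.042), 5 µM library 6 (0.0234) or 10 µM library 6 (0.0438) was left out, and not in the other 9 such fits, where the adjusted p ran from 0.0575 to 0.154. Without vehicle 6 the difference was -0.86 (0.145). The block also called it at 5 µM (-0.84, adjusted p = 0.000279) and at 1 µM (-0.54, 0.0141). Without the block and without vehicle 6 these differences were -0.52 (0.41) and -0.22 (0.802).

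OAS3, 1 of the 2′-5′-oligoadenylate synthetases that activate RNase L (ENSG00000111331, chromosome 12, 112938352 to 112973249, plus strand), was lower at each higher dose in every label number. Values were 9.23, 8.80 and 8.66 in vehicle libraries 6, 8 and 11, 9.01, 8.66 and 8.35 at 1 µM, 8.50, 8.15 and 8.10 at 5 µM and 7.80, 8.02 and 8.01 at 10 µM. The 5 and 10 µM libraries lay below every vehicle library, and number 6, the highest in vehicle, was the lowest number at 10 µM. Normalised reads were 191.9 ± 20.4 at 10 µM and 427.1 ± 103 in vehicle (SD, n = 3 each), a ratio of 0.45. OAS3 fell by 0.95 ± 0.19 at 10 µM (limma adjusted p = 0.00391, called in all 12 fits with 1 library left out) and by 0.65 at 5 µM (0.0382). The 5 µM call was lost without vehicle 6 (adjusted p = 0.0972), vehicle 8 (0.0755), 1 µM 8 (0.0557), 5 µM 8 (0.115), 5 µM 11 (0.123), 10 µM 8 (0.0532) or 10 µM 11 (0.0543). Against 1 µM, OAS3 fell by 0.73 at 10 µM (adjusted p = 0.0489), a call that was made in 2 of the 12 fits with 1 library left out, those without vehicle 6 or 5 µM 6. In the other 10 the adjusted p ran from 0.0519 to 0.172, the highest without 10 µM library 6.

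The related genes OAS1, OASL and OAS2 were not called without the block, and differences between these genes were not tested. OAS1 differed by -0.45 at 10 µM (limma adjusted p = 0.331, with the replicate block 0.00895), and without vehicle library 6 by -0.19. OASL, a synthetase-like protein without that enzyme activity, differed by -0.32 (0.384, with the block 0.038), and without vehicle 6 by -0.18. OAS2 differed by 0.13 (0.636). OAS1, OAS2 and OASL lay at 5.80 to 7.42 over all libraries, where the scale flattens, and in normalised reads the ratio of 10 µM to vehicle was 0.56 for OAS1 and 0.66 for OASL, against 0.45 for OAS3.

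SAMD9, an inhibitor of poxvirus replication (ENSG00000205413, chromosome 7, 93099513 to 93118023, minus strand), was 10.0, 9.79 and 9.98 in vehicle libraries 6, 8 and 11, 9.73, 9.74 and 9.84 at 1 µM, 9.84, 9.68 and 9.62 at 5 µM and 9.79, 9.48 and 9.58 at 10 µM. The 10 µM and vehicle groups touched at 9.79. SAMD9 fell by 0.31 ± 0.10 at 10 µM (limma adjusted p = 0.046), and this call was made in 3 of the 12 fits with 1 library left out. It was lost without vehicle 6 (adjusted p = 0.102), vehicle 11 (0.135), 1 µM 6 (0.0548), 1 µM 8 (0.0651), 1 µM 11 (0.0596), 5 µM 8 (0.0638), 5 µM 11 (0.053), 10 µM 8 (0.155) or 10 µM 11 (0.113). Its paralogue SAMD9L differed by -0.01 (adjusted p = 0.975).

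IFI35, a leucine zipper protein that was the most abundant effector per length at 318 normalised reads per kilobase, was 9.56, 9.26 and 9.18 in vehicle libraries 6, 8 and 11, 9.52, 9.62 and 9.57 at 1 µM, 9.37, 9.42 and 9.48 at 5 µM and 9.08, 9.46 and 9.39 at 10 µM. In number 6 vehicle was the highest library and in numbers 8 and 11 the lowest. The groups overlapped at every dose, and the difference at 10 µM was -0.02 (limma adjusted p = 0.913).

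The IFIT proteins bind viral RNA and block its translation, and no member of this family was called. At 10 µM the differences were -0.34 for IFIT1, -0.10 for IFIT2, -0.19 for IFIT3 and -0.04 for IFIT5, with limma adjusted p-values of 0.482, 0.762, 0.448 and 0.78. Vehicle library 6 was the highest of all 12 libraries for IFIT1 (7.90), IFIT2 (9.33) and IFIT3 (9.45), and without it the differences at 10 µM were 0.08, 0.15 and 0.01. For IFIT2, 10.3% of exon bases overlap another gene in GENCODE 29. MX1, a GTPase that traps viral nucleocapsids, differed by -0.36 (adjusted p = 0.201, with the replicate block 0.0319, and without vehicle 6 by -0.57 with 0.0288). ISG20, an RNA exonuclease, differed by 0.41 (0.229, with the block 0.0455, and without vehicle 6 by 0.63 with 0.0553), and IFI6, a mitochondrial and endoplasmic reticulum protein, by 0.12 (0.612).

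In the ISG15, ubiquitin and ADP-ribosylation group, 1 of 7 members was higher at 10 µM (14.3%, against 11.2% of all genes) and 2 were lower (28.6%, against 11.4%), with a median difference of -0.10. Without vehicle library 6 that median was 0.08, and neither lower call, TRIM21 or USP18, was made. USP18 passed the filter only through vehicle, where it is high, so its share in the lower count carries no weight. PARP14, a mono-ADP-ribosyltransferase (ENSG00000173193, chromosome 3, 122680618 to 122730840, plus strand), was the most abundant of the group per length at 771 normalised reads per kilobase. Its values were 12.9, 12.7 and 12.7 in vehicle libraries 6, 8 and 11, 13, 12.9 and 13 at 1 µM, 13.1, 13.1 and 13 at 5 µM and 13.3, 13 and 13.1 at 10 µM. All 5 and 10 µM libraries exceeded all vehicle libraries, and the 1 µM group touched vehicle at 12.9. Normalised reads were 8961 ± 969 at 10 µM and 6926 ± 571 in vehicle (SD, n = 3 each), a ratio of 1.29. PARP14 rose by 0.37 ± 0.09 at 10 µM (limma adjusted p = 0.0121) and by 0.30 at 5 µM (0.042).

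The 10 µM call of PARP14 was lost without vehicle 8 (limma adjusted p = 0.052) and stood at the threshold without vehicle 11 (0.05). The 5 µM call was made in 3 of 12 such fits. It was lost without vehicle 8 (adjusted p = 0.143), vehicle 11 (0.139), any 1 µM library (0.0501 to 0.0601), any 5 µM library (0.0632 to 0.118) or 10 µM 11 (0.0571).

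The partners PARP9, an ADP-ribosyltransferase family member, and DTX3L, a ubiquitin ligase that binds it, lie head to head near PARP14 on chromosome 3 and share 217 exon bases on opposite strands. Neither was called. PARP9 differed by 0.12 at 10 µM (limma adjusted p = 0.675) and DTX3L by -0.10 (0.639). Their vehicle library 6 stood above vehicle 8 and 11, at 10.0 against 9.53 and 9.43 for PARP9 and at 12 against 11.5 and 11.4 for DTX3L. Without vehicle 6 the difference of PARP9 at 10 µM was larger and that of DTX3L turned positive.

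USP18, the protease that removes ISG15 from proteins and restrains the interferon receptor, was low (ENSG00000184979, chromosome 22, 18149899 to 18177397, plus strand). Its values were 6.03, 6.07 and 5.97 in vehicle libraries 6, 8 and 11, 6.11, 5.81 and 5.76 at 1 µM, 5.69, 6.04 and 5.83 at 5 µM and 5.69, 5.60 and 5.55 at 10 µM. Only at 10 µM were all 3 treated libraries below all vehicle libraries. Normalised reads were 8.08 ± 1.58 at 10 µM and 19.9 ± 1.81 in vehicle (SD, n = 3 each), a ratio of 0.41. The filter asked for a value above 5.86 in at least 3 libraries, which USP18 reached in all 3 vehicle libraries, in 1 library each at 1 and 5 µM and in 0 at 10 µM, so its entry into the test depended on vehicle. With that limit, USP18 fell by 0.41 ± 0.12 on the stabilised scale (limma adjusted p = 0.0326), and this was lost without vehicle 6 (0.0609), vehicle 8 (0.098), vehicle 11 (0.0636) or 10 µM 6 (0.052), 8 (0.0799) or 11 (0.0901).

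TRIM21, an intracellular antibody receptor and ubiquitin ligase (ENSG00000132109, chromosome 11, 4384897 to 4393696, minus strand), was 9.97, 9.86 and 9.81 in vehicle libraries 6, 8 and 11, 9.84, 9.84 and 9.70 at 1 µM, 9.65, 9.55 and 9.64 at 5 µM and 9.60, 9.45 and 9.67 at 10 µM. At 5 and 10 µM no treated library overlapped vehicle. TRIM21 fell by 0.31 ± 0.08 at 10 µM (limma adjusted p = 0.0213), a call lost without vehicle 6 (0.0541), vehicle 8 (0.0545) or 10 µM 8 (0.0807). At 5 µM the difference of -0.27 had an adjusted p of 0.0523, and of 0.0196 with the replicate block.

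ISG15 itself, the ubiquitin-like modifier that gives the group its name, ran from 7.22 to 8.02, and its difference at 10 µM was 0.18 (limma adjusted p = 0.54). HERC6, a ligase of the HERC family, differed by -0.37 (adjusted p = 0.253, with the replicate block 0.0097), and without vehicle library 6 by -0.16.

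The transcription factors were the only group of the 5 with a positive median at 10 µM, 0.33, with 4 of 5 differences positive. Without all libraries of number 6 that median was 0.15. Limma called 2 of the 5 higher, against 11.2% of all genes, and the replicate block 3, against 18.7%. Without vehicle library 6 limma called 1, IRF1, against 11.9% of all genes. IRF1, a factor that drives MHC class I and interferon genes (ENSG00000125347, chromosome 5, 132481609 to 132490798, minus strand), was 10.8, 10.5 and 10.6 in vehicle libraries 6, 8 and 11, 11.2, 11 and 11.1 at 1 µM, 11.1, 11.2 and 11.4 at 5 µM and 11.5, 11.4 and 11.5 at 10 µM. Every treated library exceeded every vehicle library. Normalised reads were 2774 ± 112 at 10 µM and 1537 ± 171 in vehicle (SD, n = 3 each), a ratio of 1.81, and the ratios at 1 and 5 µM were 1.39 and 1.53.

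IRF1 rose by 0.47 ± 0.10 at 1 µM (limma adjusted p = 0.0375), 0.60 at 5 µM (0.00239) and 0.83 at 10 µM (0.000202), and without the replicate block it was the only member called at all 3 doses. With the block IFIH1, IFI16, IFI44, IFI44L, TAP1 and IRF7 were called at all 3 doses too. The 5 and 10 µM calls were made in all 12 fits with 1 library left out. The 1 µM call was lost without vehicle 8 (adjusted p = 0.164), vehicle 11 (0.136), 1 µM 6 (0.119), 1 µM 8 (0.0795), 1 µM 11 (0.121), 5 µM 8 (0.0644), 10 µM 8 (0.056) or 10 µM 11 (0.0609). Between 10 and 1 µM IRF1 differed by 0.37 (adjusted p = 0.0583, with the replicate block 0.00977). In GENCODE 29, 28.0% of the exon bases of IRF1 overlap genes on the opposite strand, C5orf56 and AC116366.3. Whether the authors counted by strand is not given in the sources used here, so reads of these genes cannot be told apart from those of IRF1 there.

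IRF7, the factor that amplifies the interferon alpha genes (ENSG00000185507, chromosome 11, 612553 to 615999, minus strand), was 8.76, 8.69 and 8.94 in vehicle libraries 6, 8 and 11, 9.07, 9.42 and 9.11 at 1 µM, 8.93, 9.08 and 9.47 at 5 µM and 9.09, 9.41 and 9.40 at 10 µM. The 1 and 10 µM libraries lay above all vehicle libraries, and 5 µM library 6 lay just under vehicle 11. Normalised reads were 576.7 ± 76.6 at 10 µM and 389.5 ± 40.3 in vehicle (SD, n = 3 each), a ratio of 1.48. IRF7 rose by 0.50 ± 0.15 at 10 µM (limma adjusted p = 0.0339), and this was lost without vehicle 6 (0.0644), vehicle 8 (0.112) or 10 µM 8 (0.107) or 11 (0.101). The differences of 0.40 at 1 µM and 0.36 at 5 µM were called with the replicate block (adjusted p = 0.0458 and 0.0358) and not without it (0.218 and 0.138).

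STAT2, the subunit that carries the activating domain of the interferon complex, was the most abundant factor of the list per length at 622 normalised reads per kilobase. It was 11.5, 11.8 and 11.7 in vehicle libraries 6, 8 and 11, 12, 11.8 and 11.9 at 1 µM, 12.2, 12.1 and 11.8 at 5 µM and 12.2, 12 and 11.8 at 10 µM. Treated and vehicle libraries overlapped at 11.8 at each dose. The difference at 10 µM was 0.33 ± 0.13 (limma adjusted p = 0.0837, with the replicate block 0.0286) and at 5 µM 0.37 (0.0759, with the block 0.0225).

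IRF9, the subunit of the same complex that contacts DNA, was low at 5.79 to 6.41 and differed by 0.02 at 10 µM (limma adjusted p = 0.952). For IRF9, 48.4% of exon bases are shared with AL136295.5 on the same strand, so its value is uncertain. IRF2, a factor that competes with IRF1 for its sites, differed by -0.14 (adjusted p = 0.301).

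**Figure D3:**
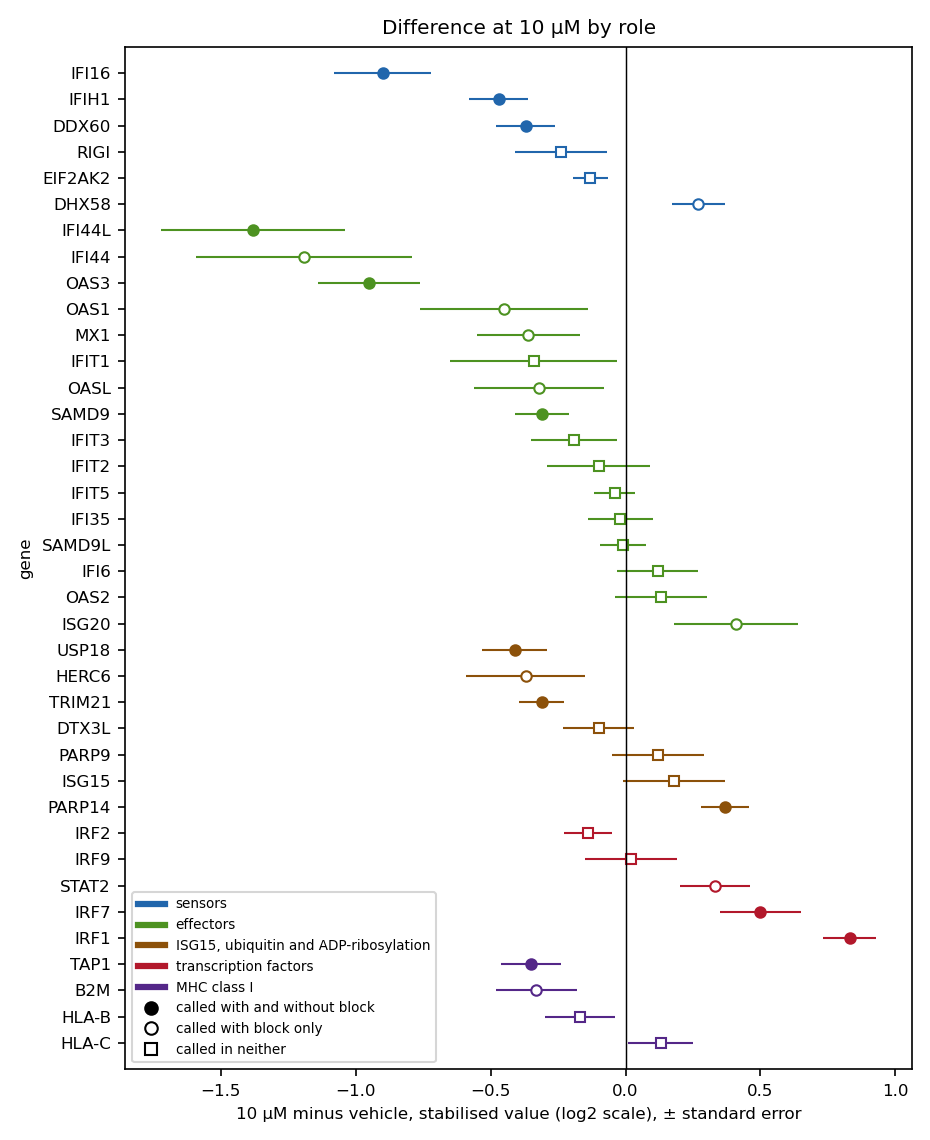
Difference between 10 µM and vehicle of the 38 tested members on the stabilised scale (log2), with the standard error from limma as bars and colours for the 5 roles. Filled circles were called with and without the label number as a block, open circles with it only, and open squares in neither. IFI44L at -1.38 and IRF1 at 0.83 mark the ends.

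In MHC class I presentation, 1 of 4 members, TAP1, was lower at 10 µM (11.4% of all genes), and the median of the 4 was -0.25. TAP1 is a subunit of the transporter that brings peptides into the endoplasmic reticulum (ENSG00000168394, chromosome 6, 32845209 to 32853978, minus strand). Its values were 9.52, 9.91 and 10.0 in vehicle libraries 6, 8 and 11, 9.49, 9.44 and 9.43 at 1 µM, 9.30, 9.40 and 9.54 at 5 µM and 9.45, 9.47 and 9.47 at 10 µM. The 1 and 10 µM libraries lay below all vehicle libraries, 5 µM library 11 exceeded vehicle 6, and the treated libraries of numbers 8 and 11 were over 0.4 below their own vehicle at each dose. Normalised reads averaged 849.4 ± 152 in vehicle cells, then 644.1 ± 15.7 at 1 µM, 626.4 ± 57.3 at 5 µM and 648.9 ± 5.63 at 10 µM (SD, n = 3 each).

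TAP1 fell by 0.35 ± 0.11 at 10 µM (limma adjusted p = 0.0488) and by 0.40 at 5 µM (0.0377), and the -0.36 at 1 µM was called with the replicate block (0.0327) and not without it (0.147). The 10 µM call was made in 1 of the 12 fits with 1 library left out, the one without vehicle 6 (adjusted p = 0.00229, difference -0.49), and in the other 11 the adjusted p ran from 0.0512 without 5 µM 6 to 0.183 without vehicle 11. The 5 µM call was lost without vehicle 8 (adjusted p = 0.134), vehicle 11 (0.146), 1 µM 8 (0.0562), 1 µM 11 (0.0543), 5 µM 6 (0.126), 5 µM 8 (0.0975), 10 µM 8 (0.0535) or 10 µM 11 (0.0541). For TAP1, 9.5% of exon bases overlap PSMB8-AS1 on the opposite strand.

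B2M, the invariant light chain of MHC class I, was the most abundant member per length at 3325 normalised reads per kilobase. It was 14.7, 14.3 and 14.4 in vehicle libraries 6, 8 and 11, 14.6, 14.2 and 14.3 at 1 µM, 14.3, 14.1 and 14.2 at 5 µM and 14.4, 13.9 and 14.1 at 10 µM. Within each number the 10 µM library was lower than vehicle, while across numbers the groups overlapped. The difference at 10 µM was -0.33 ± 0.15 with a limma adjusted p of 0.134, and of 0.0015 with the replicate block, and at 5 µM -0.27 (0.268, with the block 0.00813). Without vehicle 6 these differences were -0.22 (0.327) and -0.15 (0.538). The heavy chains HLA-B and HLA-C, whose reads may be split between near-identical genes, differed by -0.17 and 0.13 at 10 µM (adjusted p = 0.393 and 0.462). With the block HLA-B was called lower at 5 µM (-0.30, adjusted p = 0.0306, without the block 0.147).

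Set side by side at 10 µM, the median differences were -0.30 for the 6 sensors, -0.25 for the 16 effectors, -0.10 for the ISG15, ubiquitin and ADP-ribosylation group, 0.33 for the transcription factors and -0.25 for MHC class I, against 0.00 over all genes. By label number, 6, 8 and 11, the sensor medians were -0.58, -0.20 and -0.20, the effector medians -0.35, -0.15 and -0.04, the transcription factor medians 0.33, 0.20 and 0.10, and the MHC class I medians 0.01, -0.35 and -0.30. Those of the ISG15, ubiquitin and ADP-ribosylation group were -0.34, 0.00 and 0.10. The sign was the same in all 3 numbers for sensors, effectors and transcription factors, and not for that group or MHC class I. Members are not replicates, so these medians describe the lists and carry no test.

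Counted by groups that do not overlap, 4 of 38 members had all 3 libraries of 10 µM above all vehicle libraries (DHX58, IRF1, IRF7 and PARP14), against 17% of all genes. Lower by the same count were 10 members, against 16.8% of all genes: EIF2AK2, OAS3, IFIH1, TRIM21, DDX60, IFI44L, IFI44, IFI16, TAP1 and USP18. USP18 passed the filter only through vehicle, where it is high, so its place in this count carries no weight. The 10 µM and vehicle groups of EIF2AK2, DDX60 and PARP14 are only 1 rounding step apart. At 5 µM there were 2 higher (14.9% of all genes) and 6 lower (14.3%), and at 1 µM 2 higher (9.55%) and 2 lower (8.77%).

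Members also differed between label numbers. In an additive model of dose and label number, an F test called 15 of 38 members between numbers, against 30.8% of all genes tested. In 13 of the 15, number 6 stood above both 8 and 11 (15.1% of all genes): IFI44, IFI44L, OAS1, OAS2, OASL, IFIT1, IFIT2, IFIT3, ISG20, HERC6, PARP9, DTX3L and B2M. IFI44 averaged 7.22 in number 8, 7.20 in number 11 and 8.17 in number 6 over the 4 groups, which are differences of -0.96 and -0.97 from number 6 (limma adjusted p = 5.18e-05). OAS1 differed by -0.72 and -0.74 (adjusted p = 0.000258). The other 2, IFI16 and MX1, were lowest in number 6 (15.6% of all genes), with IFI16 0.37 and 0.45 higher in numbers 8 and 11 (adjusted p = 0.000541). No sensor other than IFI16 and no transcription factor was called between numbers.

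**Figure D4:**
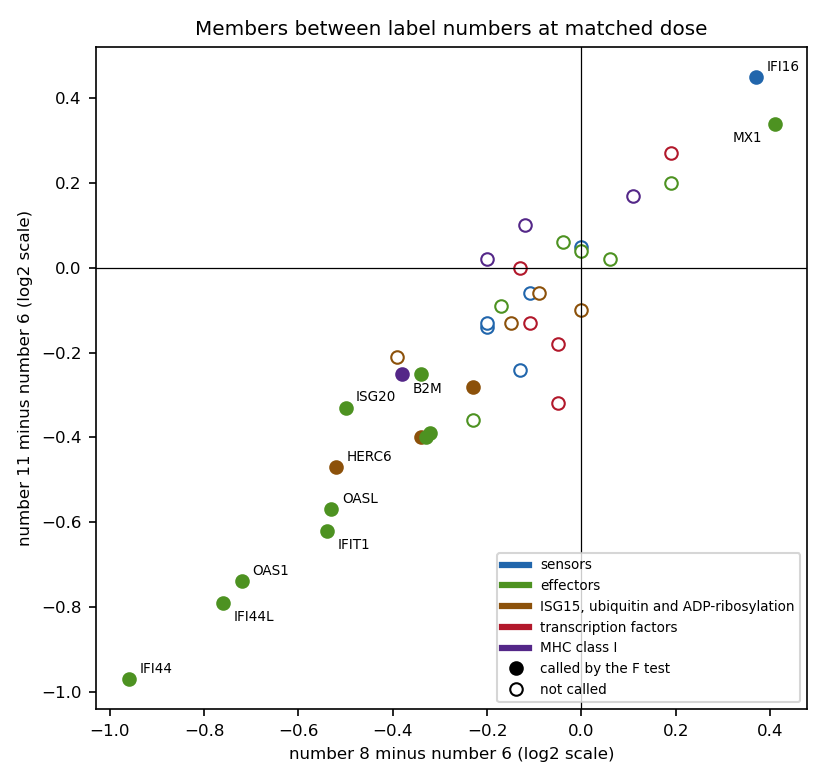
Difference of each tested member between label number 8 and 6 (horizontal axis) and between 11 and 6 (vertical axis), at matched dose, on the stabilised scale (log2). Points are the 38 members, coloured by role and filled where the F test called them. Most filled points lie at lower left, with IFI44 at -0.96 and -0.97, and IFI16 and MX1 lie at upper right.

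Genes upstream of the members were counted from wider lists. Of the interferons, their receptors and JAK-STAT genes, 14 of 24 were tested, and at 10 µM 1 was higher (7.14%, against 11.2% of all genes) and 2 were lower (14.3%, against 11.4%). With the replicate block 3 were called in each direction (21.4%, against 18.7% higher and 19.7% lower of all genes). IFNGR1, the ligand-binding chain of the interferon gamma receptor, rose by 0.80 (11.97 ± 0.25 at 10 µM and 11.17 ± 0.15 in vehicle, SD, n = 3 each, limma adjusted p = 0.000868), while IFNGR2, the other chain, fell by 0.50 (10.87 ± 0.06 and 11.37 ± 0.32, 0.029) and PTPN2, a phosphatase of JAK and STAT proteins, by 0.47 (0.00148). Of the type I receptor chains, IFNAR1 differed by -0.03 (adjusted p = 0.877) and IFNAR2 by -0.37 (0.0644, with the replicate block 0.011). The interferon genes IFNA1, IFNB1, IFNE, IFNK, IFNG and IFNL1 are not analysed here.

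Of the adaptors and kinases of nucleic acid sensing, 15 of 16 were tested, with 2 higher and 2 lower at 10 µM (13.3% each, against 11.2% and 11.4% of all genes), and 3 and 3 with the replicate block (20% each, against 18.7% and 19.7%). The DNA-sensing pair fell together at 10 µM: CGAS, the enzyme that makes cyclic GMP-AMP, by 0.65 (9.04 ± 0.19 at 10 µM and 9.69 ± 0.01 in vehicle, limma adjusted p = 0.00143), and STING1, the receptor of that messenger, by 0.73 (9.24 ± 0.27 and 9.98 ± 0.02, 0.00136; SD, n = 3 each). The kinases below them were higher, IKBKE by 0.77 (10.17 ± 0.21 and 9.40 ± 0.26, 0.0202) and TBK1 by 0.27 (0.0319). MAVS, the adaptor of the RNA sensors, differed by -0.03 (adjusted p = 0.793).

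Of 40 other interferon-stimulated genes, 32 were tested, with 3 higher (9.38%, against 11.2% of all genes) and 5 lower (15.6%, against 11.4%) at 10 µM. BATF2, a leucine zipper factor, fell by 0.98 (7.23 ± 0.48 at 10 µM and 8.21 ± 0.24 in vehicle, limma adjusted p = 0.0137) and IFITM2, which blocks viral entry, by 0.86 (9.06 ± 0.10 and 9.92 ± 0.24, 0.00465; SD, n = 3 each). TRIM5, which binds retroviral capsids, and TRIM14 each fell by 0.39 (adjusted p = 0.00321 and 0.0173). PARP10, another mono-ADP-ribosyltransferase, rose by 0.47 (0.00351). The other 3 called genes, with larger p, differed by -0.30 to 0.66. With the replicate block there were 7 higher (21.9%, against 18.7% of all genes) and 10 lower (31.2%, against 19.7%).

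Of 25 other antigen presentation genes, 19 were tested, and 5 were higher at 10 µM (26.3%, against 11.2% of all genes) while none was called lower by limma, against 11.4%. An unadjusted p under 0.05 in either direction was found for 9 of the 19, against 6186 of the 17767 genes. The replicate block called 9 higher (47.4%, against 18.7%) and 2 lower (10.5%, against 19.7%). TAPBPL, a peptide editor, rose by 0.79 (10.05 ± 0.23 at 10 µM and 9.26 ± 0.22 in vehicle, limma adjusted p = 0.00879), and PSMB10, an immunoproteasome subunit, by 0.68 (8.75 ± 0.09 and 8.07 ± 0.10, 0.00485; SD, n = 3 each). The chaperones CANX, PDIA3 and CALR, which fold MHC class I among many other proteins, rose by 0.47, 0.37 and 0.30 (0.00205, 0.00219 and 0.0165). At 1 µM limma without the block called 1 gene of the 4 lists, PSMB10 (0.64, adjusted p = 0.0431), and with the block 10 higher (12.7%, against 6.76% of all genes) and 3 lower (3.8%, against 5.26%). TAP2, the partner of TAP1, differed by 0.23 (0.0715, with the block 0.0316). The heavy chain HLA-E differed by -0.47 (0.0919, with the block 0.00495), and the other immunoproteasome subunits PSMB8 and PSMB9 by -0.13 and 0.03 (0.296 and 0.902).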

How the data were processed

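RNA from 12 HEYA8 cultures was sequenced as ribosome-depleted total RNA, per the labels' protocols. The deposited values are variance-stabilised log2 expression values made by the authors, rounded to 3 significant digits. Per the submitters' processing notes, DESeq2 was used and the build was GRCh38 (hg38). Aligner, counter, strand setting and annotation are not given in the sources used here. Of 21211 entries, 4 named no gene and stayed out of all fits, where the entry for reads with no feature stood at 36.2% to 41.4% of reads. Gene symbols were matched for 21166 of 21207 genes, and positions and exon lengths come from GENCODE 29.

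The stabilising curve was inverted from its value at 0 reads (4.8647). Of 57682 values under 6, 96.5% then fell within 0.005 of a whole read, against 26.2% with depths assigned to the wrong libraries. Normalised reads above a value of 10 carry the rounding of the deposited value.

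Tests were made with limma (version 3.58.1, R 4.3.3), fitting 4 dose groups to the deposited values of the 12 libraries with a variance trend. Genes entered with a value more than 1 above the minimum of 4.86 in at least 3 libraries (17767), and calls used a two-sided Benjamini-Hochberg adjusted p under 0.05 over all of them. The fit was run on simulated data with independent noise in each library. These held no effect shared by libraries of the same label number, so the run cannot speak to such an effect. The label numbers were taken to pair the libraries, since all 18 correlations of same-numbered deviations exceeded 0.1 (0.316 to 0.777). Calls given without naming the block leave this pairing out, and those with the replicate block use it. Fits with a library or a label number left out also leave the pairing out. Alternatives were the replicate block, no filter and a stricter filter (2 above the minimum), quantile normalisation, voom on the recovered reads, each library or label number left out, and fits of only the groups compared.

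The members and gene lists were chosen with earlier results of these data known. Values in every library are given for members called at any dose, and in each role for the member with the highest level per length and the largest difference at 10 µM. Other members are given by range and counts, and genes of the wider lists mainly where called, at most 5 per list by smallest p at 10 µM, with IFNAR1, IFNAR2, MAVS, HLA-E, TAP2, PSMB8 and PSMB9 added after their values were seen. Some genes of the wider lists enter the counts but are not reported here, and 1 gene stands in 2 of these lists. Counting error alone sets a lower limit to the spread of low genes such as USP18.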

Additional observations from a re-analysis of the deposited data

Results flagged for a closer look

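IFI35 moved in opposite directions in different label numbers. The mean of its 3 treated libraries minus vehicle was -0.24 in number 6, with all 3 doses below vehicle, and 0.24 in number 8 and 0.30 in number 11, with all 3 doses above vehicle. The difference between the numbers was not tested. Vehicle library 6, against which the treated libraries of number 6 are set, had the lowest depth of all libraries, and IFI35 stood there at 697.7 normalised reads. Whether depth bears on the direction was not tested.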

How the results depend on the processing

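No member named with a call at 1, 5 or 10 µM changed sign in any alternative. The block by label number changed the counts of called members to 2 higher and 5 lower at 1 µM (6.76% and 5.26% of all genes). At 5 µM they were 4 and 11 (15.3% each) and at 10 µM 6 and 15 (18.7% and 19.7%). Between 10 and 1 µM they were 2 and 5 (9.46% and 11.4%). Fits of only the 2 groups compared gave 0 higher at 1 µM, 1 higher and 1 lower at 5 µM, 5 lower at 10 µM and 0 lower between 10 and 1 µM. Quantile normalisation and voom each gave 1 higher at 5 µM and 1 higher between 10 and 1 µM, and voom and no filter gave 0 lower between these doses. In voom the shares of all genes were 7.25% higher at 5 µM, and 2.41% higher and 2.12% lower between 10 and 1 µM. With 1 library or 1 label number left out, members higher numbered 0 to 3 at 1 µM, 0 to 4 at 5 µM, 1 to 5 at 10 µM and 0 to 1 between 10 and 1 µM, and members lower 0 to 2, 0 to 8, 0 to 12 and 0 to 4. The median over the 38 tested members ran from -0.13 to 0.01 at 1 µM, from -0.14 to -0.02 at 5 µM and from -0.23 to -0.07 at 10 µM, that of effectors at 10 µM from -0.29 to -0.01 and that of transcription factors from 0.15 to 0.45. Fits without a label number left 8 libraries, and the cause of the other shifts was not tested. The share of all genes called also moved between fits, for lower at 10 µM from 11.4% without the block to 19.7% with it. Apart from those of the block and voom, the counts in this paragraph are given without that share, so they are not set against it. Leaving out USP18, an alternative added after seeing the data, changed 1 count, the members lower at 10 µM, to 8. Members called between label numbers ranged from 10 to 18. Depth limits RIGI, USP18, OAS2, OASL, IRF9 and IFI27 most, which had few reads in every library.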
